A study of Mus musculus with 12 samples.

Results

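The nuclear-encoded genes of the mitochondrial respiratory chain and of ATP synthase were followed here in livers from a pair of mouse experiments. A gene was a member when its symbol began with Nduf, Sdha, Sdhb, Sdhc, Sdhd, Uqcr, Cox4i, Cox5, Cox6, Cox7, Cox8 or Atp5 and did not contain -ps, the mark of a pseudogene. The rule found 102 members in all. The CDE diet table held 100 of them among 31663 gene names, the normal diet table held 101 among 25285, and 99 stood in both.

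Polyadenylated RNA of whole livers from C57BL/6 mice was sequenced in bulk, with 3 livers in each of 4 groups. CflarLKO mice carried floxed Cflar, which encodes the cell death inhibitor cFLIP, together with Alb-Cre, which acts in hepatocytes, and the CflarFF controls carried the floxed alleles. Both groups were females, 8 weeks old when they were put on a choline-deficient diet with 0.15% DL-ethionine in the drinking water (the CDE diet) for 28 days, a regimen that injures the liver. Fgf18Tg mice carried a Rosa26 transgene from which Alb-Cre switches on the growth factor Fgf18 in hepatocytes, were 8 weeks old and ate a normal diet, and were set against NonTg mice. The labels do not give the sex of the normal diet mice, the Cre status of NonTg mice, or which of the transgenic lines was used. Each library came from a separately numbered mouse. Diet, age at sampling, table, depth and control mice all differed between the experiments, and sex may have differed. These cannot be told apart.

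The respiratory chain passes electrons from NADH, through complex I, and from succinate, through complex II, to ubiquinone, then through complex III and cytochrome c to complex IV, which reduces oxygen. Complexes I, III and IV pump protons out of the mitochondrial matrix, and complex V, the ATP synthase, uses their return to make ATP. Most subunits are encoded in the nucleus, a few core subunits of complexes I, III, IV and V in mitochondrial DNA and none of complex II, and the liver, with its high oxidative load, holds all complexes in abundance.

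By complex, the CDE table held 48 members of complex I, 8 of complex II, 8 of complex III, 19 of complex IV and 17 of complex V. These were subunits in general use, assembly factors, tissue isoforms of complex IV, and 4 near-identical copies in that table (Ndufa11b, Ndufb4c, Ndufs6b and Cox6c2), whose counts are uncertain because reads may be shared with their parent genes. After a filter on low counts 97 of the 100 CDE members and 92 of the 101 normal diet members were tested. The 3 not tested on the CDE diet were Cox4i2, Cox6a2 and Cox8b, and the 9 not tested on the normal diet were the 7 tissue isoforms of complex IV with Ndufa11b and Ndufs6b.

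Transcription of these genes has long been tied to nuclear respiratory factor 1 (NRF1), estrogen-related receptors (ERR) and YY1, and short stretches of promoter that hold their core letters are shown for 6 of the members. RefSeq promoters of build GRCm38.p6, which is not the GRCm39 build of the counts, reach from 250 bases before to 50 bases after the start of a gene. Of the members, 82 had a promoter there, and a gene counted when any of its promoters held the letters. The NRF1 core GCGCATGCG, on either strand, stood in 10 of these 82 members (12.2%), against 1.95% of all 27025 genes with a promoter. The YY1 core AAGATGGCG stood in 8 (9.76%, against 1.64%), the ERR site TCAAGGTCA in 2 (2.44%, against 0.466%), the core CCGGAAGT of ETS factors such as Gabpa in 5 (6.10%, against 4.31%) and the GC box GGGCGG in 39 (47.6%, against 38.2%). A match is a description of the letters and not evidence of binding. Capitals mark the core, or its reverse complement, and each line runs 5′ to 3′ along the strand of the gene.
Ndufaf4 (NRF1, 113 bases before the start, promoter chr4:24897833-24898132, plus strand): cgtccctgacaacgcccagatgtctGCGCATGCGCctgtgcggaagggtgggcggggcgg
Cox6a1 (NRF1, 162 bases before the start, promoter chr5:115348909-115349208, minus strand): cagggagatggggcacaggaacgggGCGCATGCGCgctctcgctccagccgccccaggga
Atp5g2 (NRF1, 42 bases before the start, promoter chr15:102670998-102671297, minus strand): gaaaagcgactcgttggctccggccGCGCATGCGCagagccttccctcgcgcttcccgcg
Atp5g3 (ERR, 52 bases before the start, promoter chr2:73911277-73911576, minus strand): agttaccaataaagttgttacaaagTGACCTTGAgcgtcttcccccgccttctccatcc
Sdhd (ERR, 36 bases after the start, promoter chr9:50603800-50604099, minus strand): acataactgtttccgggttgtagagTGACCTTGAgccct
Ndufs6 (YY1, 33 bases after the start, promoter chr13:73328433-73328732, minus strand): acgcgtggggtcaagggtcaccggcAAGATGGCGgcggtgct
In the 3 NRF1 windows the core lies inside a palindrome, so that the match is found on both strands. Of the 6 members shown, Ndufaf4 and Sdhd were lower in both models, Cox6a1 and Atp5g3 as well, Ndufs6 passed the test only in Fgf18Tg livers, and Atp5g2 passed it in neither. Atp5k, described below, is among the other members with an NRF1 core, and is not shown.

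The libraries held 6487178 to 10414883 counts in CflarLKO livers and 8224069 to 9746145 in CflarFF livers, 1136680 to 3089872 in Fgf18Tg livers and 1726126 to 2215877 in NonTg livers. Both targeted genes differed in the direction of the labels. Cflar fell to 460, 449 and 477 normalized counts in CflarLKO livers, against 592, 608 and 716 in CflarFF livers (−0.47 ± 0.13, edgeR adjusted p = 0.0235). It was also lower in Fgf18Tg livers, at 124, 128 and 113, against 164, 149 and 180 in NonTg livers (−0.43 ± 0.13, edgeR adjusted p = 0.0277). Fgf18 stood at 5747, 5151 and 4287 in Fgf18Tg livers, against 206, 83.3 and 102 in NonTg livers. Of 12 hepatocyte markers, 6 were lower and 0 higher in CflarLKO livers (median log2 fold change −0.87), and 6 were lower and 1 higher in Fgf18Tg livers (median −0.34). Of 10 stellate cell or fibroblast markers, 8 were higher and 0 lower in CflarLKO livers (median 1.81), and 8 of the 9 tested were higher and 0 lower in Fgf18Tg livers (median 2.32). Cholangiocyte markers were higher in 5 of 6 and 2 of 2 tested and macrophage markers in 6 of 7 and 2 of 6, in CflarLKO and Fgf18Tg livers in that order, with 0 lower. Neutrophil markers were higher in 1 of 2 and 4 of 4 tested, with 0 lower. Endothelial markers did not rise: 0 of 5 passed in CflarLKO livers (median −0.28), and 2 of 5 were lower and 0 higher in Fgf18Tg livers (median −0.71). T or NK cell markers were higher in 2 of 4 and B cell markers in 0 of 3 tested in CflarLKO livers, and 0 were tested in Fgf18Tg livers. Beside these marker counts, 13.1% of all genes were lower and 15.6% higher in CflarLKO livers, and 11.7% and 10.7% in Fgf18Tg livers. Summed hepatocyte marker levels ran from 279085 to 378293 normalized counts in CflarLKO livers and from 487813 to 1204590 in CflarFF livers. They ran from 193947 to 226262 in Fgf18Tg livers and from 233828 to 258770 in NonTg livers. The normal diet table names only 6 of the 7 cholangiocyte markers. In whole liver, fewer hepatocytes and less RNA per hepatocyte cannot be told apart, and the part of these shifts in the results on the members was not tested.

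In CflarLKO livers on the CDE diet, the nuclear-encoded respiratory chain genes were lower as a group after trimmed mean of M values (TMM) scaling, which sets the bulk of genes to no change. By edgeR's quasi-likelihood test with Benjamini-Hochberg adjustment, 44 of 97 members were lower than in CflarFF livers at an adjusted p under 0.05, where 13.1% of all 17036 genes were lower. No member was higher by the same edgeR test, where 15.6% of all genes were, and 1 member, Cox6b2, was higher at an unadjusted p under 0.05. DESeq2 and limma also called 0 members higher. The median log2 fold change over the members tested was −0.47, beside −0.00 over all genes tested, and 93 of the 97 values lay below 0. In 55 members every CflarLKO library lay below every CflarFF library, where 21.0% of all genes did so. The member count rested on few libraries: it was 17, 14 and 28 without CflarLKO replicate 1, 2 and 3, and 61, 36 and 29 without CflarFF replicate 1, 2 and 3. The 14 lower in every such fit were Ndufs7, Ndufa10, Ndufb5, Ndufb8, Ndufb9, Ndufb10, Ndufb11, Ndufaf1, Ndufaf4, Ndufaf6, Cox6c2, Sdha, Uqcrfs1 and Uqcrh. CflarFF replicate 1 lay nearest to the CflarLKO livers: the median over members of its log2 level, relative to the mean of each gene over the 6 libraries, was −0.03, against 0.34 and 0.35 in the other CflarFF livers and −0.30, −0.15 and −0.17 in the CflarLKO livers.

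In Fgf18Tg livers on the normal diet the members were lower as a group as well, under the same scaling. By the same edgeR test 59 of 92 members were lower than in NonTg livers, where 11.7% of all 10909 genes were lower. By the same edgeR test 0 members were higher, where 10.7% of all genes were, 0 were higher at an unadjusted p under 0.05, and 0 by DESeq2 or limma. The median log2 fold change was −0.48, beside 0.02 over all genes tested, and 91 of 92 values lay below 0. In 72 members the Fgf18Tg libraries all lay below the NonTg libraries, where 19.3% of all genes did so. The count stayed between 46 and 64 when any 1 library was left out. The per-library medians were −0.22, −0.26 and −0.26 in Fgf18Tg livers and 0.15, 0.25 and 0.31 in NonTg livers.

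**Figure D1:**
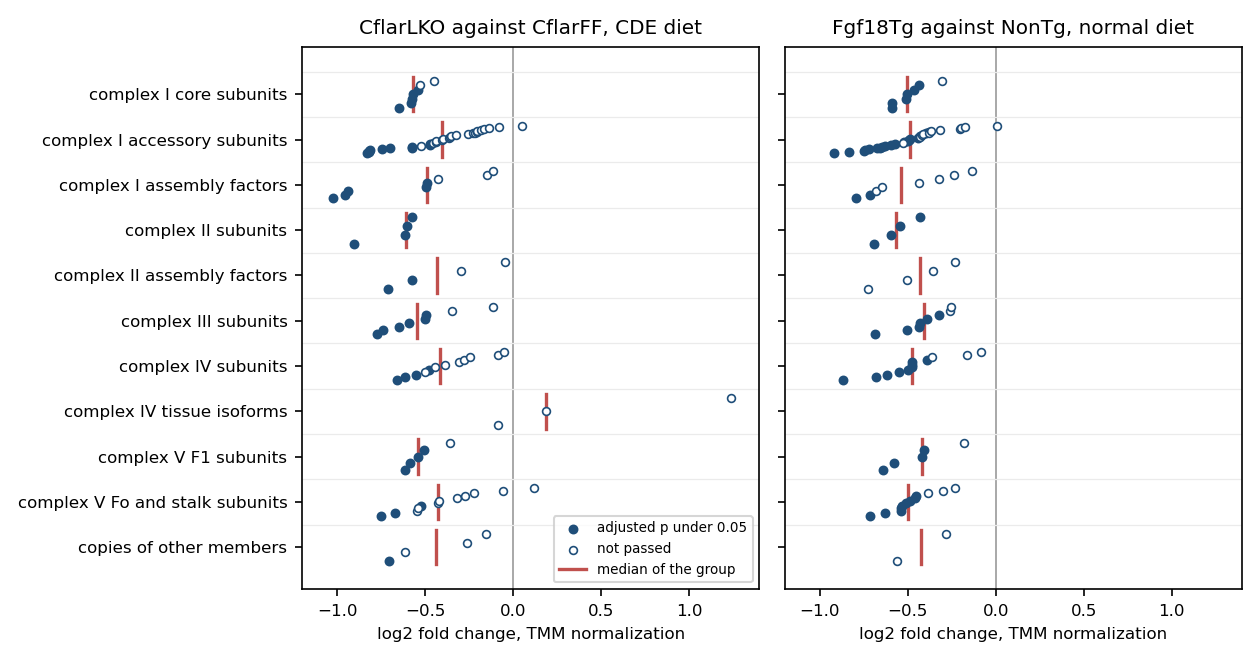
Log2 fold change of each member tested (x axis, TMM scaling) by complex and role (y axis), for CflarLKO against CflarFF on the left and Fgf18Tg against NonTg on the right. Filled points passed an adjusted p under 0.05, open points did not, and the vertical bar is the median of the group. Nearly all points lie left of 0, 93 of 97 and 91 of 92, and the tissue isoforms of complex IV were tested only on the left.

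How far these falls hold depends on how the libraries are put on one scale. Without any scaling beyond the library total, members took 2.19%, 2.23% and 2.21% of all counts in CflarLKO livers, against 1.89%, 2.66% and 2.44% in CflarFF livers. The 3 CflarLKO values thus lay between the lowest and the highest CflarFF value. Members took 1.31%, 1.32% and 1.35% in Fgf18Tg livers, against 1.35%, 1.51% and 1.49% in NonTg livers, with 1 NonTg library just under the highest Fgf18Tg library. The normal diet table lists 0 mitochondrially encoded (mt-) names, against 37 in the CDE table, so the shares of the experiments have different denominators and are compared only within each. The 100 most abundant genes held less of the total in the altered livers, 32.2% to 36.2% in CflarLKO livers against 39.9% to 45.4% in CflarFF livers, and 42.1% to 45.3% in Fgf18Tg livers against 50.5% to 53.0% in NonTg livers. Outside those 100 genes, members took 2.81% to 3.09% of the remaining counts in CflarLKO livers, against 2.96% to 3.82% in CflarFF livers, which overlap. They took 2.15% to 2.20% in Fgf18Tg livers, against 2.64% to 2.87% in NonTg livers, which do not. With the mitochondrially encoded genes left out of the total, members averaged 2.36% ± 0.0544 in CflarLKO livers and 2.50% ± 0.436 in CflarFF livers (SD, n = 3 each).

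**Figure D2:**
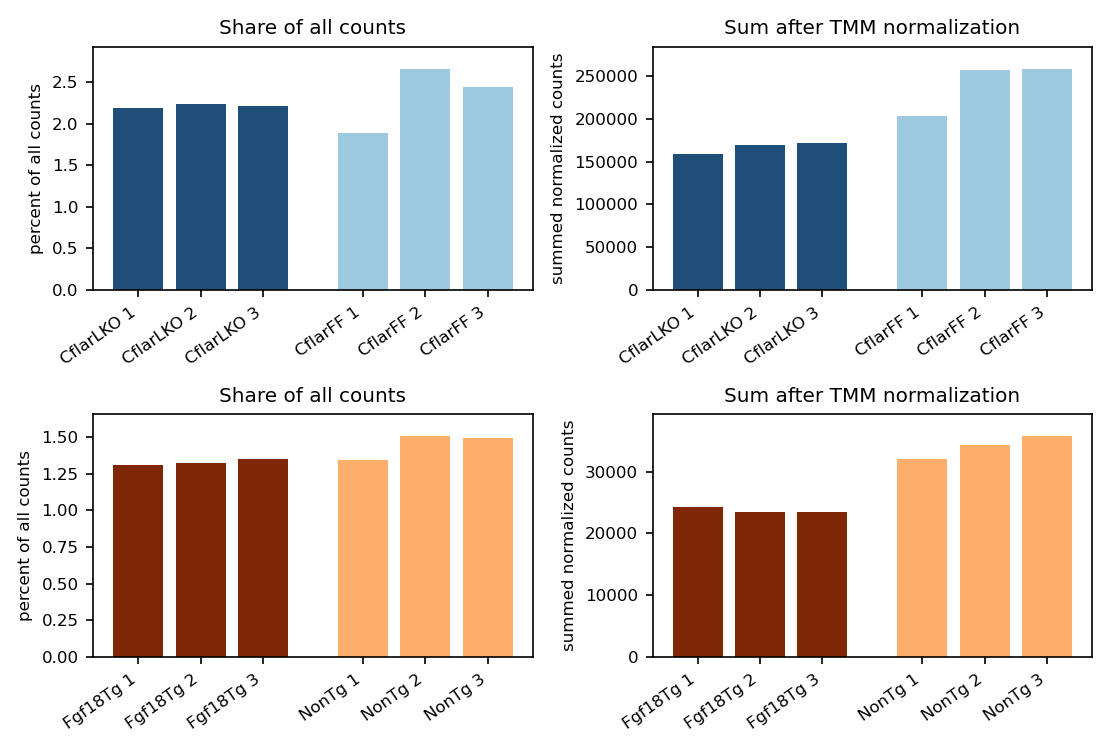
Members together in each library, as percent of all counts (left panels) and as summed counts after TMM scaling (right panels), on the CDE diet (upper, CflarLKO then CflarFF) and the normal diet (lower, Fgf18Tg then NonTg). Each bar is 1 liver. The shares overlap between groups, 2.19% to 2.23% against 1.89% to 2.66% and 1.31% to 1.35% against 1.35% to 1.51%, whereas the scaled sums do not.

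With library totals as the only scale, edgeR called 3 members lower and 3 higher in CflarLKO livers. The lower ones were Ndufaf1, Ndufaf4 and Sdha and the higher ones Atp5k, Cox6b2 and Sdhaf2. On that scale 3.80% of all genes were lower and 39.0% higher, and the median was −0.02 over members and 0.46 over all genes. In Fgf18Tg livers 3 members were lower (Ndufb9, Cox5a and Atp5g3) and 0 higher on that scale, where 3.15% of all genes were lower and 33.3% higher, with a median of −0.08 over members and 0.42 over all genes. Under relative log expression factors 45 members were lower in CflarLKO livers, where 13.5% of all genes were, and 59 in Fgf18Tg livers, where 11.8% were. Under the deposited size factors it was 32 in CflarLKO livers (11.0% of all genes) and 63 in Fgf18Tg livers (12.9%). Under upper quartile factors it was 28 in CflarLKO livers (9.36%) and 46 in Fgf18Tg livers (8.72%). With library totals that leave out the 100 most abundant genes it was 12 in CflarLKO livers (5.78%) and 33 in Fgf18Tg livers (6.79%). A change of scale shifts all genes of a comparison by nearly the same amount, so the distance between members and all genes can hardly move. Over 6 scalings the median over members minus that over all genes was −0.48 to −0.47 in CflarLKO livers and −0.51 to −0.50 in Fgf18Tg livers (log2). This narrow range is thus no test of the result. Leaving out 1 library gave −0.61 to −0.40 in CflarLKO livers and −0.56 to −0.48 in Fgf18Tg livers. With the length trend described below removed the values were −0.37 and −0.41. DESeq2, fitted without the filter on low counts, gave −0.55 and −0.71. The median over all members together was below 0 under all 6 scalings in both comparisons, but this did not hold for each complex. On library totals the CflarLKO medians were 0.0004, −0.14, −0.09, 0.10 and −0.06 for complexes I to V, with 51 of 97 members below 0. The Fgf18Tg medians were −0.09, −0.13, −0.003, −0.07 and −0.09 on that scale, with 64 of 92 members below 0. Members that were lower under TMM and the 4 scalings other than the library total numbered 12 of 44 in CflarLKO livers and 33 of 59 in Fgf18Tg livers. The 12 were Ndufa10, Ndufb5, Ndufb8, Ndufb9, Ndufb10, Ndufb11, Ndufaf1, Ndufaf4, Ndufaf6, Sdha, Uqcrfs1 and Uqcrh.

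**Figure D3:**
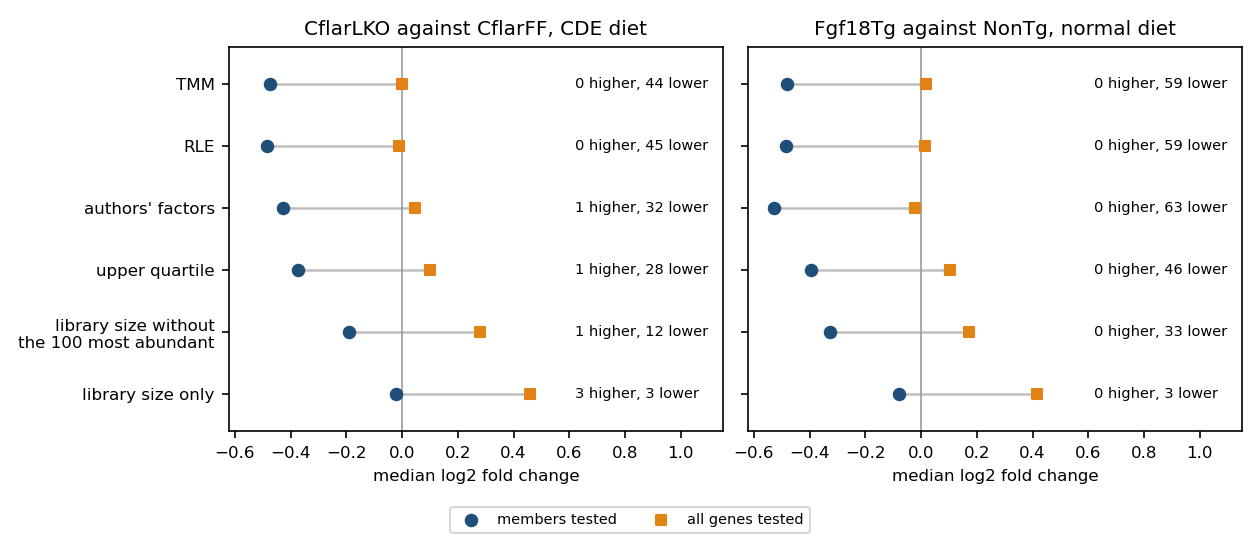
Median log2 fold change (x axis) over the members tested (circles) and over all genes tested (squares) under 6 ways of scaling the libraries (y axis), for CflarLKO against CflarFF and Fgf18Tg against NonTg. The text at the right gives the members called by edgeR, with 44 and 59 lower members under TMM and 3 and 3 under library totals, while the grey line between the medians keeps nearly the same length.

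Transcript length also bears on the values. Members are short, with a median longest transcript of 1064 bases among the 94 with a length on the CDE diet, against 3029 bases over all genes tested. Across all genes tested the log2 fold change increased slightly with length (Spearman's rho 0.15 in CflarLKO and 0.16 in Fgf18Tg livers, across 16551 and 10156 genes that are not independent). Among the members it went the other way, with rho −0.26 over 94 members in CflarLKO livers and −0.12 over 88 members in Fgf18Tg livers. With a length trend per library removed, an alternative chosen after the data were seen, 36 members were lower and 1 higher in CflarLKO livers, where 14.5% of all genes were lower and 14.9% higher. In Fgf18Tg livers 49 were lower and 0 higher, where 11.1% of all genes were lower and 10.9% higher.

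Complex I, the entry point for NADH, was lower in 20 of 48 members in CflarLKO livers and in 27 of 47 in Fgf18Tg livers, with medians of −0.45 and −0.49. Beside this count and those by complex and role that follow, 13.1% of all genes were lower in CflarLKO livers and 11.7% in Fgf18Tg livers. Its core subunits, which carry the flavin and the iron-sulfur clusters, were lower in 5 of 7 and 6 of 7. Their values were close together, from −0.65 to −0.45 in CflarLKO livers and from −0.59 to −0.31 in Fgf18Tg livers. Ndufv1, which binds FMN and takes the electrons of NADH, had 1022, 928 and 1064 normalized counts (counts scaled by TMM to the mean library of its table) in CflarLKO livers, against 1381, 1585 and 1507 in CflarFF livers. The groups did not overlap, and the log2 fold change was −0.57 ± 0.14 (SE, edgeR adjusted p = 0.0128). In Fgf18Tg livers it had 194, 161 and 200, against 265, 289 and 279 in NonTg livers (−0.59 ± 0.12, edgeR adjusted p = 0.00274).

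The accessory subunits of complex I, which surround the core, varied more among themselves. In CflarLKO livers 10 of 30 were lower, with values from −0.83 to 0.05, and in Fgf18Tg livers 19 of 30, from −0.92 to 0.01. The 13 accessory subunits named Ndufb1 to Ndufb11, Ndufc1 and Ndufc2 lie in the membrane arm, but this set by name is not all of that arm. Of these 13, 6 were lower in CflarLKO livers and 7 did not pass, at −0.52 to −0.14. In Fgf18Tg livers 8 were lower and 5 did not pass, at −0.53 to −0.32. Ndufb9 was the complex I member with the most counts in both experiments. It had 1957, 1927 and 1907 normalized counts in CflarLKO livers, against 2981, 3523 and 3703 in CflarFF livers. The CflarLKO values were tight and far below the lowest control, with a log2 fold change of −0.82 ± 0.16 (edgeR adjusted p = 0.0031). Ndufb9 also had the largest fall of any member in Fgf18Tg livers, to 311, 348 and 312, against 578, 638 and 622 in NonTg livers (−0.92 ± 0.11, edgeR adjusted p = 1.72e-05).

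The 6 Ndufb subunits lower in CflarLKO livers included Ndufb6 (−0.58 ± 0.17) and 4 with larger falls beside Ndufb9. Ndufb11 had 1037, 1160 and 1026 in CflarLKO livers, against 1649, 2042 and 2040 in CflarFF livers (−0.83 ± 0.16, edgeR adjusted p = 0.00277). Ndufb10 (−0.81 ± 0.16), Ndufb5 (−0.82 ± 0.18) and Ndufb8 (−0.75 ± 0.16) were lower as well, each with no overlap between the groups. In Fgf18Tg livers Ndufb8 had 171, 158 and 179, against 274, 268 and 293 in NonTg livers (−0.72 ± 0.12, edgeR adjusted p = 0.000367). Ndufb5, Ndufb10 and Ndufb11 were lower there too, at −0.50, −0.49 and −0.57.

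Other accessory subunits had large falls in Fgf18Tg livers. Ndufs6, a zinc-binding subunit of the matrix arm, had 114, 108 and 125 in Fgf18Tg livers, against 158, 209 and 212 in NonTg livers (−0.75 ± 0.14, edgeR adjusted p = 0.00135). Ndufa12 had 57.7, 52.2 and 70.4, against 83.9, 89.9 and 123 in NonTg livers (−0.75 ± 0.18). Ndufs5 had 58.9, 51.3 and 30.6, against 70.0, 99.1 and 97.2 in NonTg livers (−0.84 ± 0.21), but the table also lists 359 counts for its pseudogene Ndufs5-ps beside 401 for Ndufs5 over the 6 libraries, so that the split of reads between them is uncertain. In CflarLKO livers Ndufs6 and Ndufs5 did not pass the test, at −0.23 ± 0.17 and −0.20 ± 0.17, and their groups overlapped.

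Other accessory subunits passed the test in neither experiment. Ndufa5 had 787, 1074 and 898 in CflarLKO livers, against 689, 1017 and 953 in CflarFF livers (0.05 ± 0.18), and Ndufa3 had 59.5, 43.2 and 48.9 in Fgf18Tg livers, against 50.6, 54.2 and 48.6 in NonTg livers (0.01 ± 0.19). The groups overlapped for both genes in both experiments.

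The assembly factors, which build complex I without staying in it, held the 3 largest falls of any member in CflarLKO livers, with 5 of 8 lower. Ndufaf4, whose promoter holds the NRF1 palindrome shown above, had 295, 329 and 328 normalized counts in CflarLKO livers, against 617, 721 and 598 in CflarFF livers. All CflarLKO values were near one level, about 0.492 times the control level (log2 fold change −1.02 ± 0.14, edgeR adjusted p = 0.000495). Ndufaf1 had 202, 223 and 227, against 414, 386 and 465 in CflarFF livers (−0.96 ± 0.14, edgeR adjusted p = 0.000724). Ndufaf6 had 102, 130 and 127, against 179, 209 and 300 in CflarFF livers (−0.94 ± 0.21, edgeR adjusted p = 0.0066).

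In Fgf18Tg livers, where assembly factors had few counts, 2 of 8 were lower, beside 11.7% of all genes. Ndufaf1 had 37.9, 47.7 and 42.8, against 71.0, 87.2 and 63.3 in NonTg livers (−0.79 ± 0.19, edgeR adjusted p = 0.00587), and Ndufaf4 had 43.3, 27.0 and 32.1, against 53.8, 51.5 and 67.8 (−0.72 ± 0.22, edgeR adjusted p = 0.0245). Ndufaf6 had a value of −0.68 ± 0.25 that did not pass. The other members of the group lay between −0.64 and −0.13 and did not pass either.

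Complex II, succinate dehydrogenase, links the citric acid cycle to the chain. All 4 of its subunits were lower in both experiments. In CflarLKO livers only Sdha stayed lower in every leave-out fit and under the 4 scalings other than TMM and the library total. Sdha, the flavoprotein that oxidizes succinate, had 1699, 1586 and 1791 normalized counts in CflarLKO livers, against 2984, 2768 and 3750 in CflarFF livers. No CflarLKO library came near the lowest control, and the log2 fold change was −0.90 ± 0.17 (edgeR adjusted p = 0.00267). In Fgf18Tg livers Sdha had 424, 398 and 456, against 712, 650 and 696 in NonTg livers (−0.69 ± 0.11, edgeR adjusted p = 0.000226).

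The iron-sulfur subunit Sdhb had 1616, 1715 and 2345 in CflarLKO livers, against 2419, 2750 and 3277 in CflarFF livers (−0.57 ± 0.19, edgeR adjusted p = 0.0439). The third CflarLKO library was close to the lowest control there. The membrane anchors Sdhc and Sdhd had log2 fold changes of −0.62 ± 0.16 and −0.60 ± 0.19, with Sdhd at 1515, 1522 and 1773 in CflarLKO livers, against 1940, 2326 and 3045 in CflarFF livers. In Fgf18Tg livers Sdhb, Sdhc and Sdhd were at −0.60 ± 0.11, −0.43 ± 0.13 and −0.54 ± 0.13, with no overlap between the groups.

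Of the complex II assembly factors, Sdhaf1 (−0.58 ± 0.15) and Sdhaf3 (−0.71 ± 0.18) were lower in CflarLKO livers. Sdhaf2, which helps to attach the flavin to Sdha, had a value of −0.04 ± 0.14, and Sdhaf4 had −0.29 ± 0.23. In Fgf18Tg livers 0 of the 4 passed edgeR's test, and 0 were higher at an unadjusted p under 0.05, with values from −0.73 to −0.23.

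**Figure D4:**
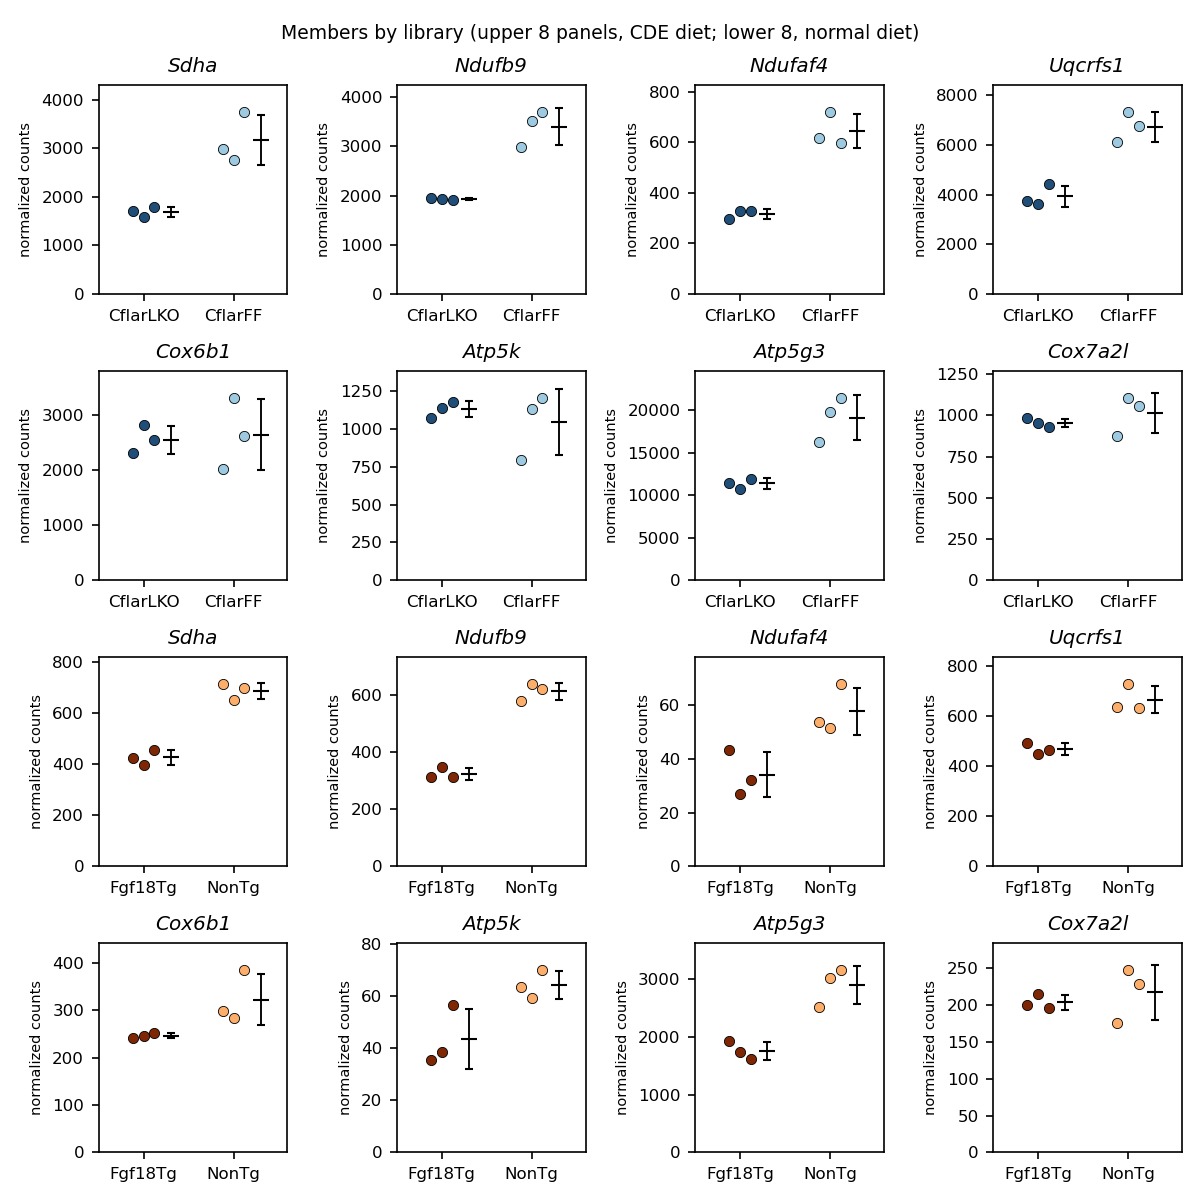
Normalized counts (y axis, from 0) of 8 members in each liver, on the CDE diet (upper 8 panels, CflarLKO left of CflarFF) and the normal diet (lower 8 panels, Fgf18Tg left of NonTg). Points are single livers and the bar beside them is the mean with its SD over 3 livers. Sdha, Ndufb9, Ndufaf4, Uqcrfs1 and Atp5g3 are separated in both experiments, Cox6b1 and Atp5k only on the normal diet, and Cox7a2l in neither.

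Complex III, which hands electrons from ubiquinol to cytochrome c, was lower in 6 of 8 members in both experiments, with medians of −0.54 in CflarLKO livers and −0.41 in Fgf18Tg livers. Over all genes 13.1% were lower in CflarLKO livers and 11.7% in Fgf18Tg livers. Uqcrfs1, the Rieske iron-sulfur protein, had 3750, 3627 and 4427 normalized counts in CflarLKO livers, against 6109, 7342 and 6756 in CflarFF livers (−0.78 ± 0.17, edgeR adjusted p = 0.00636). It had 491, 446 and 465 in Fgf18Tg livers, against 634, 727 and 633 in NonTg livers (−0.51 ± 0.11, edgeR adjusted p = 0.00317). Uqcrq, a small subunit with the most counts of its complex when both groups are averaged, was at 4484, 5576 and 4443 in CflarLKO livers, against 6628, 6615 and 7204 in CflarFF livers (−0.50 ± 0.17, edgeR adjusted p = 0.0488).

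Uqcrq had 945, 889 and 964 in Fgf18Tg livers, against 1162, 1100 and 1241 in NonTg livers (−0.32 ± 0.10, edgeR adjusted p = 0.0321), a fall that turns to 0.08 when library totals are the only scale. The core protein Uqcrc2 was lower in both, at −0.65 ± 0.17 in CflarLKO livers and −0.68 ± 0.11 in Fgf18Tg livers. Uqcrh, the hinge protein, had −0.74 ± 0.16 in CflarLKO livers, and −0.26 ± 0.11 in Fgf18Tg livers, where it did not pass. Uqcrb passed in neither.

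Complex IV, cytochrome c oxidase, was lower in 4 of 12 common subunits in CflarLKO livers and in 9 of 12 in Fgf18Tg livers, with medians of −0.42 and −0.48. The shares of all genes that were lower were 13.1% and 11.7%. No common subunit stayed lower in CflarLKO livers in every leave-out fit, or under all 4 scalings other than TMM and the library total. Cox4i1, the common isoform of subunit 4, had 6100, 5405 and 5626 normalized counts in CflarLKO livers, against 7565, 9943 and 8766 in CflarFF livers (−0.62 ± 0.17, edgeR adjusted p = 0.0221). It had 1030, 1077 and 1016 in Fgf18Tg livers, against 1373, 1497 and 1482 in NonTg livers (−0.48 ± 0.10, edgeR adjusted p = 0.00277). Cox6a1 had 5944, 5853 and 5474 in CflarLKO livers, against 8112, 11165 and 8046 in CflarFF livers (−0.66 ± 0.19, edgeR adjusted p = 0.0212). In all of these the groups were apart.

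Cox6a1 fell as well in Fgf18Tg livers (−0.62 ± 0.11). Cox5a had the second largest fall of any member there, with 334, 334 and 294 in Fgf18Tg livers, against 555, 572 and 633 in NonTg livers (−0.87 ± 0.11, edgeR adjusted p = 3.63e-05). In CflarLKO livers Cox5a was at 3935, 3538 and 3526, against 4084, 6087 and 5964 in CflarFF livers (−0.55 ± 0.19, edgeR adjusted p = 0.0489), with CflarFF replicate 1 only just above the CflarLKO livers. Cox8a was at −0.50 ± 0.19, which did not pass, in CflarLKO livers and at −0.55 ± 0.13 in Fgf18Tg livers. Ndufa4, a subunit first assigned to complex I, was at −0.44 ± 0.19, which did not pass, and at −0.48 ± 0.12.

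Other common subunits of complex IV had values closer to 0 in CflarLKO livers. Cox6b1 had 2305, 2816 and 2540 in CflarLKO livers, against 2012, 3310 and 2615 in CflarFF livers (−0.05 ± 0.20), and the groups overlapped fully. In Fgf18Tg livers it was lower at 240, 247 and 252, against 298, 284 and 384 in NonTg livers (−0.39 ± 0.13, edgeR adjusted p = 0.0403), a fall that is 0.02 on library totals. Cox7a2 was at −0.31 ± 0.18 and −0.16 ± 0.12 and passed in neither comparison. Cox7a2l, which links complexes III and IV into supercomplexes, had 981, 952 and 932 in CflarLKO livers, against 877, 1106 and 1056 in CflarFF livers (−0.08 ± 0.14), and 200, 215 and 196 in Fgf18Tg livers, against 175, 247 and 228 in NonTg livers (−0.09 ± 0.14).

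The tissue isoforms of complex IV, used in muscle, brown fat, lung or testis, were close to the limit of detection in all livers. Cox6b2, the testis isoform, had 18.9, 8.69 and 13.2 normalized counts in CflarLKO livers, against 5.55, 5.90 and 5.95 in CflarFF livers. Its groups were apart, yet at these few counts the log2 fold change of 1.24 ± 0.43 did not pass (edgeR adjusted p = 0.0524). The call depended on the setting. Cox6b2 passed as higher under upper quartile factors, the authors' factors and both library size scalings. It also passed with the length trend removed and without CflarLKO replicate 2. Ndufa4l2, a paralog of Ndufa4 that hypoxia induces in other settings, had 25.9, 25.2 and 25.3 in CflarLKO livers, against 23.3, 27.1 and 16.7 in CflarFF livers (0.19 ± 0.29). It had 7.21, 6.30 and 10.7 in Fgf18Tg livers, against 3.23, 1.32 and 5.65 in NonTg livers, below the filter. Cox7a1 was at −0.08 ± 0.47 on the CDE diet, and Cox4i2, Cox6a2 and Cox8b had too few counts to test in either table. Per kilobase of longest transcript, Cox6b1 stood at 4132 normalized counts in CflarLKO livers and 4281 in CflarFF livers, while Cox6b2 stood at 23.3 in CflarLKO livers and 9.91 in CflarFF livers.

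Complex V was lower in 7 of 17 members in CflarLKO livers and in 13 of 17 in Fgf18Tg livers, with medians of −0.51 and −0.49. Of all genes, 13.1% were lower in CflarLKO livers and 11.7% in Fgf18Tg livers. No complex V member stayed lower in CflarLKO livers in every leave-out fit, or under all 4 scalings other than TMM and the library total. The catalytic F1 head was lower in 4 of 5 subunits in both experiments, with the small epsilon subunit Atp5e as the exception in both. Atp5b, the catalytic beta subunit, had 9247, 9056 and 10922 normalized counts in CflarLKO livers, against 13004, 15293 and 16513 in CflarFF livers (−0.62 ± 0.18, edgeR adjusted p = 0.0262). It had 1532, 1414 and 1447 in Fgf18Tg livers, against 2150, 2199 and 2217 in NonTg livers (−0.58 ± 0.10, edgeR adjusted p = 0.00059).

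The membrane part and the peripheral stalk were lower in 3 of 12 subunits in CflarLKO livers and in 9 of 12 in Fgf18Tg livers, beside 13.1% and 11.7% of all genes. The c subunit, which forms the rotating ring, is encoded by Atp5g1, Atp5g2 and Atp5g3, whose mature proteins are the same. Atp5g3 had the most counts of any member, with 11456, 10707 and 11944 in CflarLKO livers, against 16184, 19712 and 21416 in CflarFF livers (−0.75 ± 0.18, edgeR adjusted p = 0.0108). It had 1929, 1736 and 1620 in Fgf18Tg livers, against 2517, 3021 and 3154 in NonTg livers (−0.72 ± 0.12, edgeR adjusted p = 0.000332). Both pairs of groups were apart.

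The other c subunit genes had values closer to 0. Atp5g1 was at −0.55 ± 0.20 in CflarLKO livers, which did not pass, and at −0.54 ± 0.11 in Fgf18Tg livers, which did. Atp5g2, with an NRF1 palindrome in its promoter, was at −0.43 ± 0.15 and −0.23 ± 0.14 and passed in neither. Per kilobase of longest transcript, Atp5g3 stood at 13189 normalized counts in CflarLKO livers and 22162 in CflarFF livers, against 837 and 1126 for Atp5g2 in the same groups.

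Atp5k, the e subunit that helps ATP synthase form dimers, had 1078, 1144 and 1182 in CflarLKO livers, against 797, 1133 and 1207 in CflarFF livers (0.12 ± 0.17), so that the groups overlapped. In Fgf18Tg livers it was lower, at 35.5, 38.7 and 56.6, against 63.5, 59.5 and 70.1 in NonTg livers (−0.63 ± 0.20, edgeR adjusted p = 0.0317). Atpif1, the inhibitor of ATP synthase, is no member by its name. It rose in CflarLKO livers to 692, 621 and 617 normalized counts, against 266, 497 and 397 in CflarFF livers (0.74 ± 0.20, edgeR adjusted p = 0.0188), and was at 0.28 ± 0.21 in Fgf18Tg livers, which did not pass.

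Set side by side, 91 members were tested in both experiments and 88 of them lay below 0 in both. Of these, 36 were lower in both, 7 in CflarLKO livers alone, 23 in Fgf18Tg livers alone and 25 in neither. The shared 36 were 83.7% of the members lower in CflarLKO livers and 61.0% of those lower in Fgf18Tg livers. Over all 9968 genes tested in both, 681 were lower in both, which were 35.7% of the genes lower in CflarLKO livers and 54.2% of those lower in Fgf18Tg livers, and 40.5% of all genes lay below 0 in both. Over the 91 members the log2 fold changes had a Pearson's r of 0.47 and a Spearman's rho of 0.45, and over all genes tested in both the r was 0.59. The experiments share no libraries, and genes are not independent of each other.

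Whether an effect differs between the models needs a test of its own. In 1 edgeR fit over the 12 libraries, 0 of 94 members passed the test for a different effect in CflarLKO than in Fgf18Tg livers, where 3.10% of 13956 genes passed. With 3 livers per group this does not show that the effects were equal. At an unadjusted p under 0.05 it was 4 members (4.26%), against 16.7% of all genes. The lowest value belonged to Atp5k, whose difference (the CflarLKO effect minus the Fgf18Tg effect) was 0.82 ± 0.26, from 0.14 on the CDE diet and −0.69 on the normal diet (edgeR adjusted p = 0.0914), followed by Ndufs6 (0.60 ± 0.22), Ndufs5 (0.73 ± 0.28) and Cox5b (0.52 ± 0.22). Without CflarFF replicate 2, 2 members passed, Atp5k (0.90 ± 0.26) and Cox5b (0.68 ± 0.20). A member that passed in 1 experiment and not in the other is thus not shown to respond differently.

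**Figure D5:**
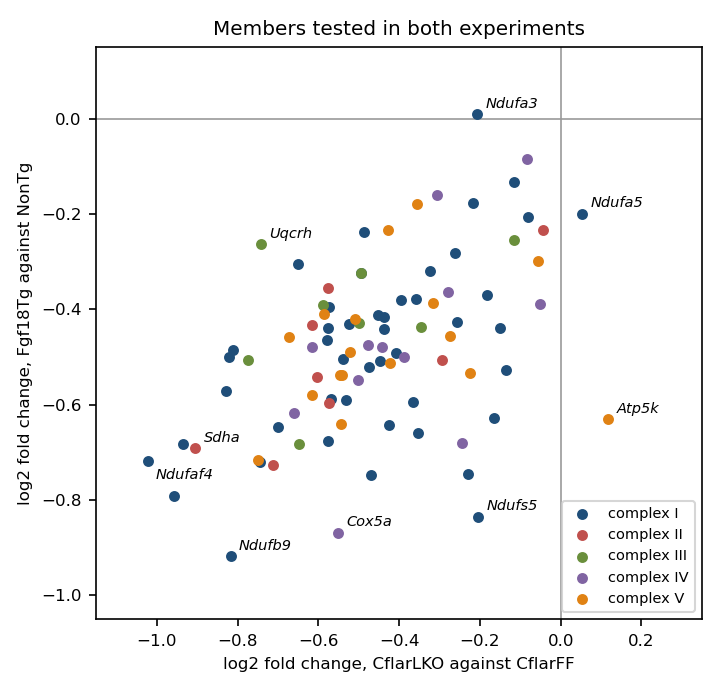
Log2 fold change of the 91 members tested in both experiments, for CflarLKO against CflarFF (x axis) and Fgf18Tg against NonTg (y axis), coloured by complex. Most points, 88 of 91, lie below 0 on both axes, with Ndufa5, Atp5k and Ndufa3 outside that region.

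The 13 subunits encoded in mitochondrial DNA are no members, and were analysed here for the CDE table. Of these, 3 were lower and 0 higher in CflarLKO livers by edgeR (0 higher at an unadjusted p under 0.05), with a median of −0.56. Over all genes tested there, 13.1% were lower and 15.6% higher. mt-Nd2 had 16487, 27585 and 26744 normalized counts in CflarLKO livers, against 48348, 39916 and 44986 in CflarFF livers (−0.91 ± 0.23, edgeR adjusted p = 0.0125), and mt-Nd4l and mt-Atp6 were the others. mt-Co1, the catalytic subunit of complex IV, had 106839, 161104 and 188882 in CflarLKO livers, against 220216, 223318 and 199696 in CflarFF livers (−0.49 ± 0.24), which did not pass. These levels spread widely between the CflarLKO livers.

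Cytochrome c (Cycs), the carrier between complexes III and IV, and cytochrome c1 (Cyc1), a complex III subunit, fall outside the naming rule. Cyc1 had 852, 948 and 924 normalized counts in Fgf18Tg livers, against 1739, 1914 and 1688 in NonTg livers (−0.97 ± 0.11, edgeR adjusted p = 6.86e-06). Cycs had 268, 262 and 219, against 463, 488 and 547 in NonTg livers (−0.99 ± 0.12, edgeR adjusted p = 2.06e-05). In CflarLKO livers Cyc1 was lower (−0.79 ± 0.20) and Cycs did not pass (−0.32 ± 0.18).

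Of the 21 electron carriers and enzymes that feed the chain, 7 were lower and 0 higher in CflarLKO livers, and 8 of 20 tested were lower and 0 higher in Fgf18Tg livers. The flavoproteins Etfa, Etfb and Etfdh, which pass electrons from fatty acid oxidation to ubiquinone, were lower in both. Beside this list and those that follow, 13.1% of all genes were lower and 15.6% higher in CflarLKO livers. In Fgf18Tg livers 11.7% of all genes were lower and 10.7% higher. Of 39 other assembly factors tested in CflarLKO livers 12 were lower and 1 higher, the copper chaperone Cox17 (0.68 ± 0.17), and of 37 in Fgf18Tg livers 9 were lower and 0 higher. Of 18 genes of the citric acid cycle and the pyruvate dehydrogenase complex 7 and 10 were lower and 0 higher. Of 78 mitochondrial ribosomal proteins 30 and 22 were lower and 0 higher, with medians of −0.36 and −0.33.

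Of 91 cytosolic ribosomal proteins tested in CflarLKO livers 2 were lower and 2 higher, with 34 below 0 (median 0.09), and of 88 tested in Fgf18Tg livers 0 were lower and 21 higher (median 0.23). Of the 23 import and channel genes 6 were lower and 1 higher in CflarLKO livers, and 7 lower and 1 higher in Fgf18Tg livers. The shares over all genes were 13.1% lower and 15.6% higher in CflarLKO livers, and 11.7% and 10.7% in Fgf18Tg livers. The higher one in both was Slc25a4, the ADP/ATP carrier of heart and muscle (1.66 ± 0.36 and 2.30 ± 0.34), whereas Slc25a5, the carrier of most other tissues, was lower in both.

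Of the 15 regulators of mitochondrial genes, 6 were lower and 0 higher in CflarLKO livers, where 13.1% of all genes were lower and 15.6% higher. Gabpa, a subunit of nuclear respiratory factor 2, had 195, 194 and 188 normalized counts in CflarLKO livers, against 359, 315 and 338 in CflarFF livers (−0.81 ± 0.13, edgeR adjusted p = 0.00139). Tfam, which packages and transcribes mitochondrial DNA, was lower as well (−0.59 ± 0.13). Nrf1, Esrra, Ppargc1a and Ppargc1b did not pass, at −0.07 ± 0.26, −0.30 ± 0.17, −0.42 ± 0.18 and −0.05 ± 0.30.

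In Fgf18Tg livers 1 of the 14 regulators tested was lower and 1 higher, where 11.7% of all genes were lower and 10.7% higher. These counts do not stand out from all genes. The higher one was Ppargc1a, the coactivator PGC-1alpha, with 25.8, 17.1 and 32.1 normalized counts in Fgf18Tg livers, against 8.61, 9.25 and 17.0 in NonTg livers (1.05 ± 0.34, edgeR adjusted p = 0.0354). The groups were apart by a narrow margin at a low level. Gabpa (−0.01 ± 0.18), Tfam (−0.35 ± 0.16), Nrf1 (0.42 ± 0.24), Esrra (−0.48 ± 0.19) and Ppargc1b (−0.01 ± 0.22) did not pass.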

How the data were processed

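Whole-liver libraries were aligned by the authors with Bowtie2 to GRCm39, and gene-level read counts were deposited as 1 table per experiment. The counter and annotation are not given in the sources used here. Bowtie2 does not splice reads, and processed pseudogenes can take reads of their parents: -ps names of member genes (14 and 3, left out) held up to 22.2% of their parent's counts in the CDE table, and Cox7c-ps1 and Ndufs5-ps held 61.7% and 89.5% in the normal diet table. The authors also deposited normalized signal values, counts divided by TCC size factors, from which their factors were recovered. Members and lists were chosen with earlier results of these data known.

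Counts were fitted per experiment with edgeR 4.0.16 (filterByExpr, TMM, quasi-likelihood F test, Benjamini-Hochberg over all genes, threshold 0.05). Fits were tested on simulated data. All 12 libraries entered 1 fit, over 18924 shared names before filtering, for the difference between models. DESeq2 1.42.0, limma 3.58.1 on log2(authors' values + 1), other scalings, filters of 10 counts in 3 libraries or none, a replicate block and leaving out each library were alternatives. Named members were, per comparison and direction, up to 8 ranked by fold change that passed with no overlap and whose higher group averaged 20 normalized counts or more, the most abundant member of each complex, fixed isoform pairs, c subunit genes, the ATP synthase inhibitor and complex II subunits. Other members named were chosen after their values were seen. Normalized counts refer to the mean scaled library of the table. Transcript lengths came from GENCODE vM21. The edgeR p-values judge a group difference against the spread between these mice, which is estimated with information shared across genes.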

Additional observations from a re-analysis of the deposited data

How the results depend on the processing

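In CflarLKO livers the count of lower members, 44 under TMM, moved to 28 (upper quartile factors), 3 (library size only), 12 (library size without the 100 most abundant genes) and 14 (adjusted p under 0.01). The count of higher members, 0, moved to 1 under upper quartile factors, the authors' factors, library size without the 100 most abundant genes and the transcript length trend. It moved to 3 under library size only. Cox6b2 was the 1 and was among the 3. The median of −0.47 moved to −0.022 and −0.19 under library size only and without the 100 most abundant genes. Leaving out a library gave 14 to 61 lower and 0 to 1 higher members and a median from −0.58 to −0.38. In Fgf18Tg livers the count of 59 moved to 3 and 33, and the median of −0.48 to −0.079 and −0.33, under those scalings, and the median to −0.40 under upper quartile factors, −0.40 with the length trend removed and −0.55 in the 12-library fit. Leaving out a library gave 46 to 64 lower members, 0 higher and a median from −0.54 to −0.46. The number of members that passed the test of a difference between models was 0 in all settings but without CflarFF replicate 2, where it was 2.

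Same-numbered mice did not deviate together (correlations from −0.11 to 0.09), so there was no sign that the numbers pair them. With 3 mice per group this cannot show that pairing was absent. A replicate block gave 37 lower members in CflarLKO livers and 60 in Fgf18Tg livers, and 0 that passed the test of a difference. DESeq2 gave 48 and 49, and limma 30 and 60.

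No named member that passed the test changed sign except in Fgf18Tg livers with library size only, where Uqcrq was at 0.083 and Cox6b1 at 0.017. Signs of others turned as follows. With library size only Cox6b1 was at 0.39, Cox7a1 at 0.37, Cox7a2 at 0.14, Cox7a2l at 0.37, Ndufa4 at 0.00756 and Atp5g2 at 0.028 in CflarLKO livers, and Cox7a2 at 0.24, Cox7a2l at 0.32 and Atp5g2 at 0.17 in Fgf18Tg livers. With upper quartile factors Cox6b1, Cox7a1 and Cox7a2l were at 0.048, 0.013 and 0.015 in CflarLKO livers and Cox7a2l at 0.000912 in Fgf18Tg livers. Without the 100 most abundant genes these were at 0.23, 0.20, 0.20 and 0.070, and with the length trend removed at 0.043, 0.026, 0.020 and 0.029. In CflarLKO livers limma put Cox6b1 at 0.021 and Cox7a1 at 0.12, and the replicate block put Cox7a1 at 0.030. Leaving out 1 library put Cox6b1 between −0.22 and 0.14 and Cox7a1 between −0.44 and 0.49 there. Causes were not tested. At the lower depth of the normal diet libraries 9 members could not be tested, against 3 on the CDE diet. The planned coding length alternative was not run.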
